A study of Mus musculus with 6 samples.

Results

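The ATAC-seq peaks at bidirectional protein-coding promoters were the accessible intervals that lay within 1 kb of the transcription start sites (TSSs) of at least 2 different genes on opposite strands. They were taken from the list deposited for untreated V6.5 mouse embryonic stem cells (mESCs), using curated RefSeq protein-coding transcripts (NM_ records) of GRCm38 on chromosomes 1 to 19. The rule found 455 peaks, which was 8.10% of the 5616 peaks within 1 kb of a protein-coding TSS and 1.13% of the 40228 autosomal peaks (41014 peaks on all chromosomes). They belonged to 441 gene pairs and touched 887 genes, and 14 of the pairs had 2 peaks.

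ATAC-seq maps open chromatin by the insertion of sequencing adapters by the Tn5 transposase. The series held 6 samples in 3 groups of 2, namely untreated V6.5 cells and ZBTB21-degron cells at 0 h and 6 h, in which the BTB-domain zinc finger protein ZBTB21 can be depleted. The cells were grown with LIF on irradiated mouse embryonic fibroblast feeders, and the libraries were size-selected for fragments of mono- and dinucleosomes. The treatment text that all labels share gives doxycycline for the degron cells, and the untreated samples are labelled as untreated. The values below come from the untreated group alone. For its 2 replicates a single peak list was deposited, with no values per replicate, so the depth per sample is unknown. The degron samples were not analysed here.

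As a check on the labelled cell type, 6 of 18 embryonic stem cell marker genes had a peak within 1 kb of a TSS (Nanog, Pou5f1, Prdm14, Sall4, Tbx3 and Zfp42), against 3 of 13 fibroblast markers (Pdgfra, Pdgfrb and Thy1). Of all 20021 genes 28.7% had such a peak, so both counts were near the general share and do not tell the cell types apart. None of the marker peaks lay at a bidirectional promoter, so the part of feeder cells in the values below was not tested.

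In a bidirectional promoter, a pair of genes is transcribed away from a shared stretch of DNA, each from its own start site on its own strand. Such promoters are usually rich in CpG dinucleotides, often lack a TATA box, and are known for serving housekeeping genes of DNA repair, RNA processing and mitochondrial function. Sequence-specific factors of the ETS, NFY, NRF1 and SP families are well known to bind them.

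The stretches between the opposed TSSs are the DNA that both genes of a pair share. The sequences below are the RefSeq reference (GRCm38.p6), read 5′ to 3′ on the plus strand, and run from the base after the minus-strand TSS to the base before the plus-strand TSS. Capitals mark any match, on either strand, to the 12 short words searched, which are given with their shares further on. The first set shows pairs with the highest scores in the class, and a pair with the lowest. It holds the intervals of Nop14/Grk4 (chr5:34660149-34660378), Ormdl2/Sarnp (chr10:128821630-128821763), Mmab/Mvk (chr5:114444028-114444268) and Pms1/Ormdl1 (chr1:53297029-53297094).
Nop14/Grk4: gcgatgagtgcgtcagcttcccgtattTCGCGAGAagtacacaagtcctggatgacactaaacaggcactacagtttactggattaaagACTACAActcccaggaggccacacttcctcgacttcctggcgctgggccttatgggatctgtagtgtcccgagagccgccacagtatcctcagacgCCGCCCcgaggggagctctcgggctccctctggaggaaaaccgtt
Ormdl2/Sarnp: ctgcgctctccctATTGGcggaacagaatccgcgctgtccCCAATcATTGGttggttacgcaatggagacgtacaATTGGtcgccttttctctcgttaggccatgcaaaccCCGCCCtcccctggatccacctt
Mmab/Mvk: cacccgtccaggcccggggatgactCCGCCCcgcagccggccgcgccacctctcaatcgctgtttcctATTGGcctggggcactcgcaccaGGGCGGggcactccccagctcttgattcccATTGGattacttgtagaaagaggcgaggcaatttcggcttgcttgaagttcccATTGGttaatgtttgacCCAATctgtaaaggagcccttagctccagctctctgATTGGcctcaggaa
Pms1/Ormdl1: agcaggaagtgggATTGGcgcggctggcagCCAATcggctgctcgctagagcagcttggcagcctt

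The 953-scoring Nop14/Grk4 peak held the BANP word on the minus strand and the ZFP143 word on the plus strand of its shared stretch. The NFY word CCAAT, or its complement, occurred 4 times in the 134 bp between Ormdl2 and Sarnp and 5 times in the 241 bp between Mmab and Mvk. It also occurred 2 times in the 66 bp between Pms1 and Ormdl1, whose peak had a score of 542, so repeated CCAAT was found at high and at low scores. It was not found throughout: Nop14/Grk4 had no CCAAT, Fkbp15/Slc31a1 at 948 had it 1 time, and the stretches of Erp44/Invs at 945 and Sirt3/Psmd13 at 542 held none of the 12 words.

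A second set shows the ETS word CCGGAAG, by 3 of the 4 highest-scoring pairs that carry it in 60 to 300 bp between their TSSs, chosen after their values were seen. The other, at Zfp142 with a score of 940, carried it 1 time and is not shown. These are Trip4/Csnk1g1 (chr9:65908795-65909009), Tepsin/Ndufaf8 (chr11:120098732-120098933) and Tbccd1/Dnajb11 (chr16:22857670-22857844).
Trip4/Csnk1g1: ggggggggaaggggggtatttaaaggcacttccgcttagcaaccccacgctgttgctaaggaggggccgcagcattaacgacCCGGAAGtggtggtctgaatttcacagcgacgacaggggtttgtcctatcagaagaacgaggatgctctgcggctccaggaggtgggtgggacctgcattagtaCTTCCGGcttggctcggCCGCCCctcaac
Tepsin/Ndufaf8: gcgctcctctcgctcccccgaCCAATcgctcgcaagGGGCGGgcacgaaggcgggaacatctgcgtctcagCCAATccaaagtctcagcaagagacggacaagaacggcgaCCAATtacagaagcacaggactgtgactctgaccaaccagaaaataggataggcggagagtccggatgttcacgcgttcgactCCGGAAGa
Tbccd1/Dnajb11: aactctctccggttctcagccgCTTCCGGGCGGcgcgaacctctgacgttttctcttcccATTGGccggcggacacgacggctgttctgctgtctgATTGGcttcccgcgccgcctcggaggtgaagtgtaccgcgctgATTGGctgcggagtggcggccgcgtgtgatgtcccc

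Trip4, a transcriptional coactivator, and Csnk1g1, a casein kinase, had the ETS word 2 times, once on each strand, within 215 bp. Tepsin, a coat protein accessory factor, and Ndufaf8, an assembly factor of respiratory complex I, had it 1 time beside 3 CCAAT words. The same counts were found between Tbccd1 and Dnajb11, a chaperone of the endoplasmic reticulum, where the ETS word overlapped an SP word.

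The last set shows a pair of textbook bidirectional genes and a histone pair, Mrps12/Sars2 (chr7:28741822-28741967) and H2ac11/H2bc11 (chr13:22042950-22043197).
Mrps12/Sars2: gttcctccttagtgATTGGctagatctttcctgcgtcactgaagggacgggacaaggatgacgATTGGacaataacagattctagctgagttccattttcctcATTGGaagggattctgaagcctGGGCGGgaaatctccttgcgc
H2ac11/H2bc11: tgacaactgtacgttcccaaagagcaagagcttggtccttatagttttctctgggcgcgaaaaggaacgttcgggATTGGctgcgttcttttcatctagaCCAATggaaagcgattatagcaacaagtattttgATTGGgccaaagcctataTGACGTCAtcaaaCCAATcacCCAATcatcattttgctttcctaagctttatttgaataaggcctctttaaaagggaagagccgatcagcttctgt

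Mrps12, of the mitochondrial ribosome, and Sars2, the mitochondrial seryl-tRNA synthetase, shared 146 bp with 3 CCAAT words. The other textbook stretches read, not shown, had fewer: Brca1/Nbr1 and Wrap53/Trp53 held 1 each and Gm27021/Cox4i1 held 0. The stretch between H2ac11 and H2bc11 held 5 CCAAT words and 1 CRE word, at a GC content of 42.3%.

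The bidirectional peaks were wider and had higher scores than the peaks at promoters of a single protein-coding gene. Their median width was 848 bp (quartiles 716 and 1052.5 bp, n = 455, 95% interval of the median 824 to 878 bp), and that of the 4866 single-gene promoter peaks was 742 bp (quartiles 590 and 960 bp, 95% interval 732 to 749 bp). The medians differed by 106 bp, with bounds of 75 and 146 bp from the ends of both intervals. The middle ranges of the classes overlapped widely, and single peaks from 220 to 2031 bp were found at bidirectional promoters.

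The score column of the list ran from 540 to 953 and is described in no source used here. A value of 540 is what the IDR program, which scores how well a peak is ranked alike in replicates, writes at an IDR of 0.05, so the score was read as higher for peaks that were more reproducible, from the values alone. Bidirectional peaks had a median score of 801 (quartiles 694 and 875, 95% interval 785 to 814), against 737 at single-gene promoters (quartiles 643 and 827, 95% interval 732 to 742). The medians differed by 64, with bounds of 43 and 82. A score of at least 800 was reached by 228 of the 455 bidirectional peaks, or 50.1% (Wilson 95% interval 45.5% to 54.7%), where 14.5% of all autosomal peaks and 32.0% of single-gene promoter peaks reached it. A score of at least 900 was reached by 71 bidirectional peaks, or 15.6%, and by 8.20% of single-gene promoter peaks. No test was made of these differences, because peaks are not replicates of a condition and no value per replicate was used. The intervals cover the spread over the listed peaks only.

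**Figure D1:**
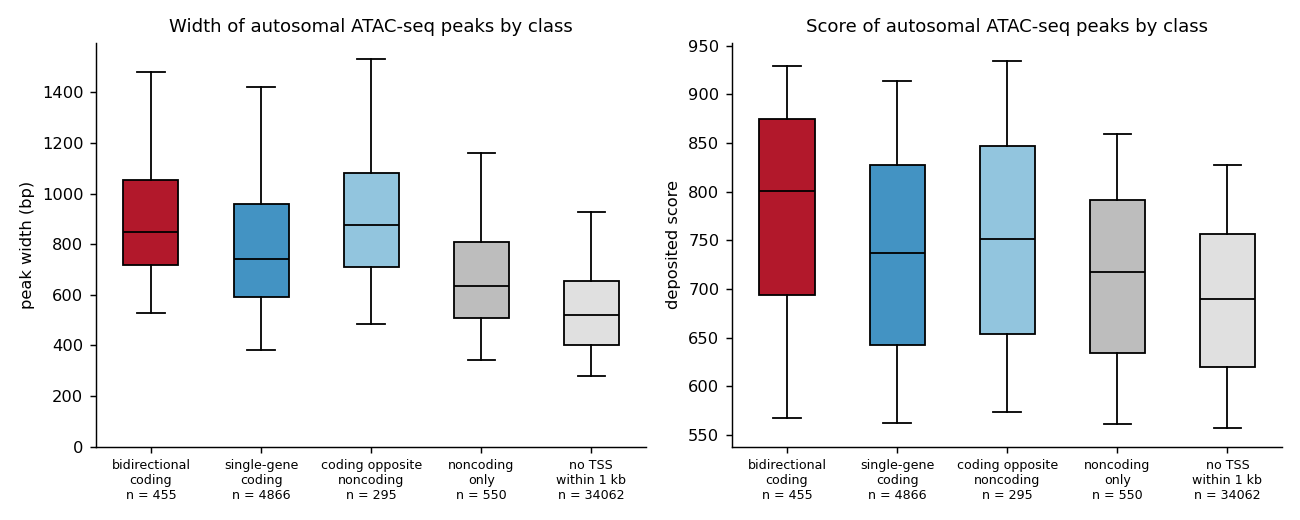
Peak width in bp (left) and deposited score (right) of the autosomal peaks by promoter class. Boxes span the quartiles with the median as a line and whiskers run from the 5th to the 95th percentile of peaks. The bidirectional class has a median width of 848 bp and a median score of 801, and the single-gene class 742 bp and 737.

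Another kind of promoter peak, with a protein-coding TSS opposite the curated TSS of a noncoding RNA gene, had a median width near that of the bidirectional protein-coding peaks. Its 295 peaks had a median width of 876 bp, and the difference of 28 bp lay inside its bounds, from 99 bp narrower to 45 bp wider at the bidirectional peaks. Its median score of 751 was lower than 801 by 50, with bounds of 16 and 79. The widths of both kinds of opposed promoter could not be told apart within these bounds, and the scores differed beyond theirs over all widths. At like width the intervals overlapped: from 600 to 800 bp the medians were 819.5 at bidirectional and 824.5 at coding opposite noncoding peaks, from 800 to 1000 bp they were 830.5 (814 to 854) and 787 (744 to 839), and at 1000 bp and over 735 (693 to 778) and 702.5 (666 to 738). Under 600 bp they were 771 (727 to 823) and 694.5 (637 to 745). Peaks at noncoding TSSs alone (n = 550) had medians of 635 bp and 717.5, and the 34062 peaks with no curated TSS within 1 kb had medians of 521 bp and 690.

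The direction was the same on each autosome. Bidirectional peaks had the higher median width on 19 of 19 chromosomes, by 31 to 237.5 bp, and the higher median score on 19 of 19, by 3 to 115. Their share among protein-coding promoter peaks ran from 3.42% on chromosome 10 (10 of 292) to 11.4% on chromosome 19 (24 of 210).

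Width is not wholly independent of the rule, since a wide interval reaches more TSSs. When only the centre of a peak had to lie within 1 kb of both TSSs, 422 peaks remained, with medians of 859.5 bp and 804.5 against 749 bp and 741 at single-gene promoters. Among peaks that overlapped a TSS, which held 95.8% of the bidirectional and 83.7% of the single-gene peaks, the medians were 857 bp and 803.5 against 776 bp and 752. The score was also compared at like width. It was 771 against 720 under 600 bp, 819.5 against 795 from 600 to 800 bp, 830.5 against 761 from 800 to 1000 bp, and 735 against 673 at 1000 bp and over. The bidirectional class had the higher median in each of the 4 width bands, and in both classes the widest band had the lowest score. From 600 to 800 bp the intervals of 797 to 852 and 787 to 803 overlapped. Under 600 bp those of 727 to 823 and 711 to 726 nearly met, and from 800 bp up they lay apart. Just inside the 1 kb limit, 11 peaks that would be lost at 100 bp less had medians of 600 bp and 768, and just outside it, 15 peaks that would be gained at 100 bp more had medians of 645 bp and 714.

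The pairs were mostly arranged head to head, with the minus-strand TSS before the plus-strand TSS. This was so for 403 of 455 peaks (88.6%, Wilson 95% interval 85.3% to 91.2%), while at the other 52 the closest opposed TSSs lay in the reverse order, so that the 5′ ends of the genes overlapped. The TSSs of the head-to-head pairs were a median of 167 bp apart (quartiles 89.5 and 354 bp, range 2 to 2076 bp). In 380 peaks (83.5%) the interval covered both TSSs, in 52 it covered 1 of them, and in 23 neither. A single accessible interval over both start sites was therefore the usual form.

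The head-to-head peaks lay about the shared stretch. Their centre minus the midpoint between the TSSs, signed along the plus strand, had a median of 5 bp (quartiles -83.25 and 95.75 bp). That sign is arbitrary for a pair, so the small median was largely set in advance, and only the spread describes the position. The centre was within 100 bp of the midpoint in 220 of 403 peaks (54.6%), and in 210 (52.1%) it lay between the TSSs. Seen from each gene of the pair, the centre was a median of 109 bp upstream of the TSS (quartiles 231 and 3 bp upstream), while at single-gene promoters it was 5 bp upstream (quartiles 118 bp upstream and 117 bp downstream). This contrast is partly built in. A centre near the midpoint of a head-to-head pair lies upstream of both TSSs, and at single-gene promoters the TSS nearest the centre was used.

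**Figure D2:**
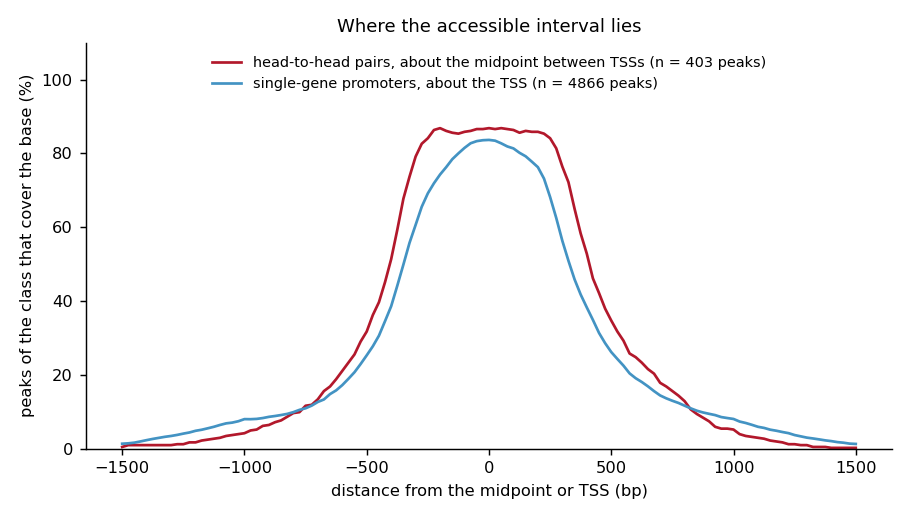
Share of peaks (%) that cover each base against distance in bp, from the midpoint between the TSSs for the 403 head-to-head peaks and from the TSS, in the direction of transcription, for the 4866 single-gene promoter peaks. The head-to-head curve has a flat top of wider reach, and both fall away within 1000 bp.

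Peak width did not follow the distance between the TSSs in a simple order. Median widths were 784 bp for pairs up to 100 bp apart (n = 112), 870.5 bp from 101 to 200 bp (n = 104), 837 bp from 201 to 400 bp (n = 95), 1006 bp from 401 to 800 bp (n = 51) and 740 bp beyond 800 bp (n = 41). Beyond 800 bp only 5 peaks covered both TSSs, or 12.2%, against 94.6% in pairs up to 100 bp apart. Median scores were 824 and 823 in the bands from 101 to 400 bp, and between 768 and 779 in the closer and the wider bands, with intervals that overlapped in part. Across the 403 peaks Spearman's rho of score with distance was 0.03 and of width with distance 0.07, given as descriptions over peaks of a single list.

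**Figure D3:**
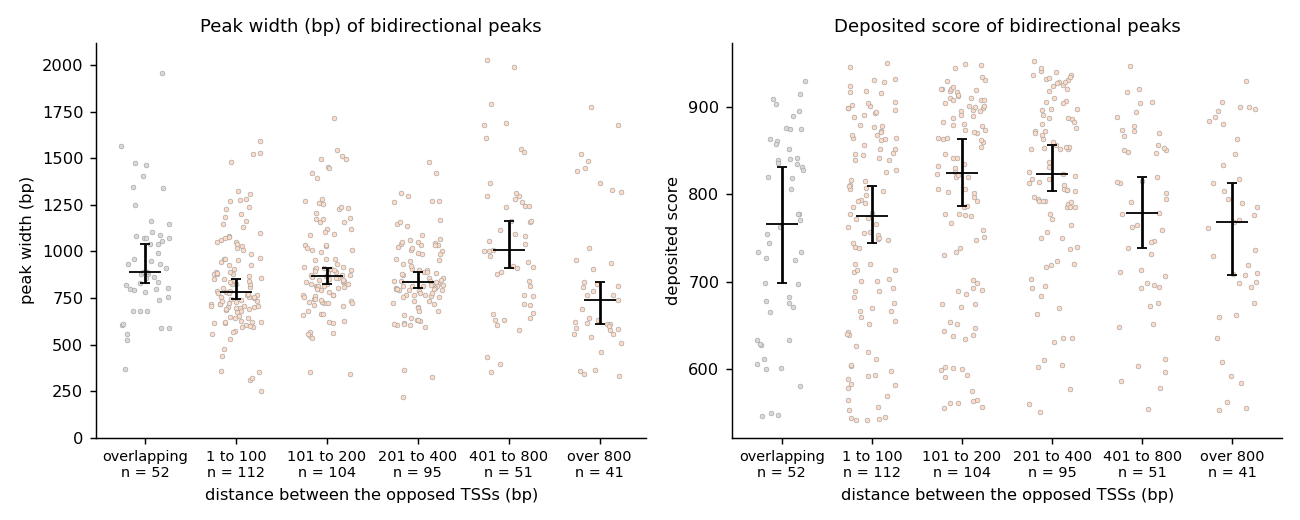
Width in bp (left) and deposited score (right) of each bidirectional peak, by the distance in bp between the closest opposed TSSs. Points are peaks, horizontal bars medians, and vertical bars their 95% intervals. Width is highest in the band from 401 to 800 bp (median 1006 bp), and scores are highest from 101 to 400 bp.

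At the top of the range of scores stood pairs of varied roles. Nop14, a factor of ribosome assembly, and Grk4, a kinase of G protein-coupled receptors, had the highest score, 953, in a peak of 1018 bp. Next came Arl16, a small GTPase, with Hgs, a sorting factor of endosomes, at 950, and Ormdl2, a regulator of sphingolipid synthesis, with Sarnp, an mRNA export factor, at 949. Fkbp15 with Slc31a1, the copper importer, had 948 and Prr11 with Ska2, of the kinetochore, 947. Dhx38, a splicing helicase, and Txnl4b had 946, Erp44, a chaperone of the endoplasmic reticulum, and Invs, of the cilium, 945, and Mmab and Mvk, enzymes of cobalamin and mevalonate metabolism, 944. All 8 of these peaks covered both TSSs, and the TSSs were 31 to 547 bp apart.

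The lowest scores were 542 for Pms1, of mismatch repair, with Ormdl1, and 542 for Sirt3, a mitochondrial deacetylase, with Psmd13, of the proteasome. They were followed by 1110032A03Rik with Fdxacb1 at 543, the zinc finger genes Zfp944 and Zfp758 at 544, and Nmnat1, an enzyme of NAD synthesis, with Lzic at 545. In 4 of these 5 the peak covered both TSSs too.

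The widest peak, of 2031 bp and score 791, covered the TSSs of Mboat7, a lysophospholipid acyltransferase, and Tsen34, of the tRNA splicing endonuclease. Atp6v1a, of the vacuolar proton pump, and Naa50, an acetyltransferase, shared 1990 bp at a score of 711. Nacc1, a BTB-domain transcriptional regulator, and Trmt1, a tRNA methyltransferase, shared 1960 bp at 546, and their 5′ ends overlapped. The narrowest peak, of 220 bp, was the weaker of 2 at the histone pair H2ac11/H2bc11, with a score of 551 beside 872 for the other, 606 bp wide.

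The closest TSSs were those of Snx5, a sorting nexin, and Mgme1, a mitochondrial exonuclease, 2 bp apart under a peak of 1009 bp and score 565. Hars and Hars2, the cytosolic and the mitochondrial histidyl-tRNA synthetase, started 4 bp apart (885 bp, score 816), and Nup98, of the nuclear pore, and Pgap2 7 bp apart (1052 bp, score 918). At the other end, the TSSs of Mus81, a DNA endonuclease, and Cfl1, cofilin, were 2076 bp apart, and a peak of 582 bp with score 900 lay between them and covered neither.

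Of 12 textbook bidirectional pairs, 5 had a peak, which was near the share of all annotated pairs (418 of 1011, or 41.3%). Mcm4, of the replicative helicase, and Prkdc, the DNA-dependent protein kinase, had a peak of 975 bp and score 732. Mrps12/Sars2 had 764 bp and 690, and Brca1, of homologous recombination, with Nbr1, an autophagy receptor, 1454 bp and 803. Trp53, the p53 tumour suppressor, and Wrap53 had 2 peaks, of 564 bp and score 776 over both TSSs and of 546 bp and score 896 to the side. The peak counted for Cox4i1, of cytochrome oxidase, with Emc8 had 1070 bp and score 639 but ended 860 bp short of the nearer TSS, so its shared stretch itself was not in a listed peak. The other 7, among them Atm/Npat, Hspd1/Hspe1 and Surf1/Surf2, had none, with the nearest peak 6279 to 58925 bp away.

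The annotation alone placed 1011 pairs with opposed protein-coding TSSs within 1 kb of each other, and 418 of them had a peak within 1 kb of both, or 41.3% (Wilson 95% interval 38.3% to 44.4%). Head-to-head and overlapping pairs had shares of 41.8% and 38.0%. By gene, 875 of 2007 paired genes had a peak within 1 kb of a TSS (43.6%, interval 41.4% to 45.8%), where 28.7% of all 20021 genes and 27.1% of the unpaired genes did. The other 593 pairs had no listed peak near both TSSs. A gene of a pair may be counted through a peak nearer to its partner.

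The share with a peak differed with CpG content in both kinds of gene. At promoters with an observed over expected CpG ratio under 0.4, 35.9% of paired and 11.6% of unpaired genes had a peak. From 0.4 to 0.7 the shares were 53.9% and 36.5%, from 0.7 to 0.9 they were 47.4% and 37.6%, and at 0.9 and over 36.5% (interval 33.3% to 39.9%) and 34.9% (interval 33.4% to 36.4%). The gap was thus wide where CpG was low and within the intervals where it was highest. Among pairs, the stretch about the midpoint had a median GC content of 60% with a peak and 65.3% without, so the pairs that were not listed were richer in GC.

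The bidirectional peaks were themselves rich in CpG. Their median GC content was 60.9% against 59.0% at single-gene promoter peaks, a difference of 1.84 percentage points (bounds 1.18 and 2.44). Their CpG ratio was 0.774 against 0.656, a difference of 0.118 (bounds 0.0943 and 0.139). Repeats took a median of 3.98% of their bases against 6.14%. The peaks opposite noncoding genes had like values, 61.6% GC and a ratio of 0.749. Within bands of the CpG ratio the score was again higher at bidirectional than at single-gene peaks. It was 785 against 741 from 0.4 to 0.7, 811 against 753 from 0.7 to 0.9, and 795 against 766 above. In the last of these bands the intervals of 750 to 832 and 742 to 788 overlapped. Below 0.4 there were only 9 bidirectional peaks, with 719 against 709. From 0.4 to 0.7 peaks opposite noncoding genes had 718 (689 to 745), under the 785 (763 to 816) of bidirectional peaks. Their intervals overlapped those of bidirectional peaks in the other bands, at 788 (765 to 826) from 0.7 to 0.9 and 753 (694 to 849) above.

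Short words known as binding sites were counted in the 300 bp about the centre of each peak, on both strands, and in the 300-bp windows of 19504 RefSeq promoters. The ETS word CCGGAAG was in 30.3% of bidirectional peaks (138 of 455, Wilson 95% interval 26.3% to 34.7%), 15.1% of single-gene promoter peaks (14.1% to 16.1%) and 12.1% of all promoters. Peaks opposite noncoding genes held it in 17.3%. It was also common in annotated pairs whether or not they had a peak, at 32.1% with and 27.2% without, with intervals that overlapped.

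The NFY word CCAAT was in 45.1% of bidirectional peaks (40.5% to 49.6%), 37.2% of single-gene promoter peaks, 35.3% of peaks opposite noncoding genes and 38.0% of all promoters. Among annotated pairs it was in 48.8% of those with a peak (44.0% to 53.6%) and 34.1% of those without (30.4% to 38.0%). Bidirectional peaks with CCAAT had a median score of 832 (n = 205) against 769.5 without (n = 250), where the ETS word went with 808.5 against 792.

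The GC-box GGGCGG of SP and KLF factors was in 64.4% of bidirectional peaks, 55.6% of single-gene promoter peaks and 48.1% of all promoters. Peaks opposite noncoding genes held it in 68.1%, and annotated pairs in 62.7% with a peak and 68.8% without. The rarer words were the YY1 word AAGATGGCG (5.27%, 2.75% and 1.88%), the ZFP143 word ACTACAA (7.03%, 3.74% and 3.76%), the NRF1 word GCATGCGC (5.05%, 3.33% and 3.65%), the BANP word TCTCGCGA (3.08%, 1.34% and 1.40%) and the CRE word TGACGTCA (3.74%, 2.18% and 2.35%), in the same order of sets. Those of YY1, ZFP143 and BANP had intervals apart from single-gene peaks, but not from peaks opposite noncoding genes (3.05%, 4.07% and 2.37%). Annotated pairs held them in 6.94%, 7.18% and 3.35% with a peak and 4.38%, 4.89% and 4.05% without, with intervals that overlapped. The 32 bidirectional peaks with the ZFP143 word had a median score of 869.5 against 795 without. The TATA word TATAAA was in 3.08% of bidirectional peaks, 4.54% of single-gene promoter peaks and 12.4% of all promoters, and the AP-1 word TGANTCA in 3.30%, 5.49% and 7.12%. For TATA and AP-1 the intervals of bidirectional and single-gene peaks overlapped, and peaks opposite noncoding genes held these words in 2.71% and 0.678%. The E-box CACGTG (9.23%, 8.18% and 8.02%) and the octamer ATTTGCAT (1.76%, 1.54% and 1.61%) had shares with overlapping intervals. A word is a description of the letters in the window and not a bound site.

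**Figure D4:**
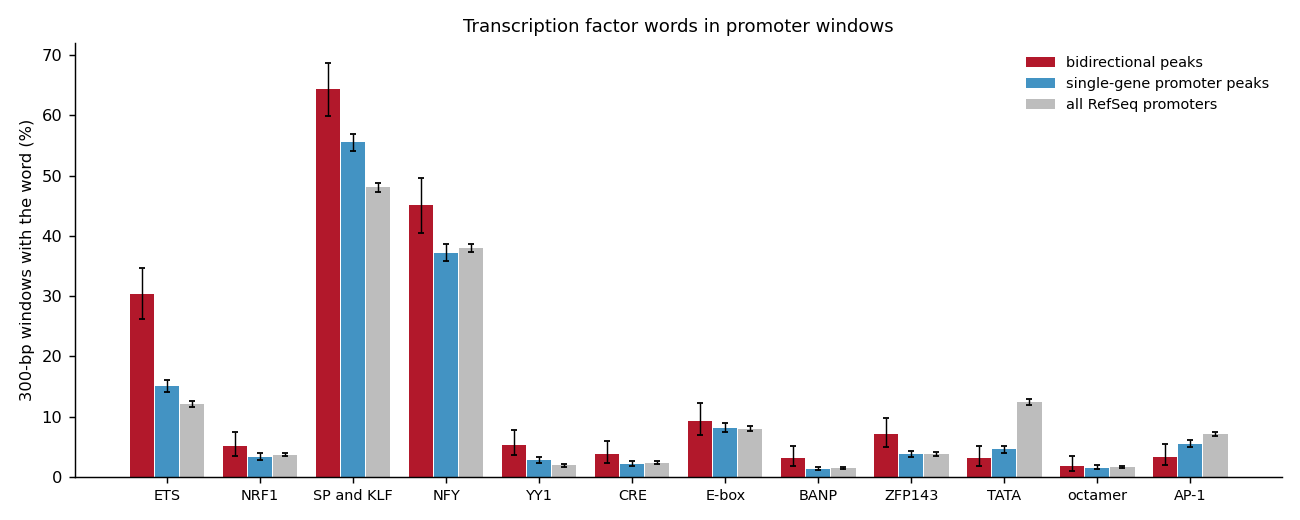
Share (%) of 300-bp windows that hold each word on either strand, for bidirectional peaks (n = 455), single-gene promoter peaks (n = 4866) and RefSeq promoters (n = 19504). Bars start at 0 and error bars are Wilson 95% intervals. The ETS word stands at 30.3%, 15.1% and 12.1%.

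The genes at bidirectional peaks were next sorted by function. Of the 5753 genes with a promoter peak, 887 had a bidirectional one, or 15.4% (Wilson 95% interval 14.5% to 16.4%), and each group below is given beside this share. The groups also differed in how many of their genes the annotation places in pairs. This was 2007 of all 20021 genes, 40.0% of DNA repair, 38.8% of histone, 34.6% of mitochondrial ribosome and 32.6% of respiratory chain genes, and 6.62% of genes named Zfp or Zbtb. The part of this placement in the shares below was not tested.

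Genes of the mitochondrial ribosome had the highest share among groups formed by gene symbol with at least 20 genes with a peak, at 16 of 40, or 40.0% (26.3% to 55.4%). Mrpl47 had a score of 927 in a peak shared with Ndufb5, a subunit of respiratory complex I, and Mrpl50 had 906 with Zfp189. Mrpl46 and Mrps11 shared a peak with a score of 703. The median score of the 16 peaks was 714.5, under the 801 of the class. Of these peaks 4 had 800 or more, where 50.1% of all bidirectional peaks did. The cytosolic ribosomal proteins, with 40 genes with a peak as well, had 5 bidirectional ones (12.5%, 5.46% to 26.1%), led by Rps27 at 826 and Rpl15 at 767.

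The respiratory chain and ATP synthase had 13 of 41 (31.7%, 19.6% to 47.0%), with a median score of 879. A score of 800 or more was found at 10 of the 13 peaks, beside 50.1% in the class. Ndufaf8 had 932, Ndufa2, of complex I, 917, Atp5pb, of ATP synthase, 886, and Uqcrb, of complex III, 879. Aminoacyl-tRNA synthetases had 6 of 22, with Hars and Hars2 sharing their peak.

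DNA repair genes had 14 of 36 (38.9%, 24.8% to 55.1%). Mre11a, a nuclease of double-strand break repair, had 889 with Ankrd49, and Xpc, the sensor of nucleotide excision repair, had 887 with the splicing factor gene Lsm3. Pms1 was at the low end, at 542. DNA replication genes had 7 of 22 (31.8%, 16.4% to 52.7%), with Pole3, of DNA polymerase epsilon, at 933, Rpa3, of the single-strand binding complex, at 921, and Orc1, of the origin recognition complex, at 919 in a peak shared with the splicing factor gene Prpf38a.

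Splicing and RNA processing genes had 22 of 81 (27.2%, 18.7% to 37.7%) and a median score of 844. Their peaks reached 800 or more in 14 of 22, beside 50.1% in the class. These genes included Nop14, Dhx38 and Prpf38a and the exosome genes Exosc1 (912) and Exosc5 (904). Proteasome genes had 6 of 26, among them Psma4 at 915, and Psme3ip1, a binding protein that the symbol pattern took in and that is not a subunit. RNA polymerase, Mediator and general factor genes had 8 of 49 (16.3%), close to the share of all genes.

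Replication-dependent histones had 11 of 32 (34.4%, 20.4% to 51.7%), on 6 peaks. Their pairs joined H2A with H2B genes 4 times and H2B with H3 in H2bc9/H3c7, and the median width was 580.5 bp. H2ac22/H2bc22 had a peak of 592 bp and score 876. Histone genes are near-identical copies, and how reads were assigned among them is not given in the sources used here, so these values are uncertain.

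Zinc finger genes named Zfp or Zbtb had the lowest share of the groups by symbol of this size, 13 of 198 (6.57%, 3.88% to 10.9%), with Zfp142 at 940 and Zfp654 at 931. This depended on how the genes were gathered: of the genes with zinc finger in the product name, 32 of 280 were bidirectional (11.4%, 8.21% to 15.7%), and 10.1% were paired in the annotation. Of the genes with receptor in the product name, 14 of 252 were bidirectional (5.56%). Solute carriers had 12 of 112 (10.7%) and developmental transcription factors 4 of 35, of which Foxred1, an oxidoreductase of mitochondria, was matched by name only. The others were Foxm1 (779), Foxa3 (761) and Foxj3 (584). Of the 1452 olfactory and vomeronasal receptor genes, 8 had a promoter peak and none a bidirectional one. The annotation placed 0 of these 1452 genes in pairs, so the lack of a bidirectional peak was largely set by the annotation.

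**Figure D5:**
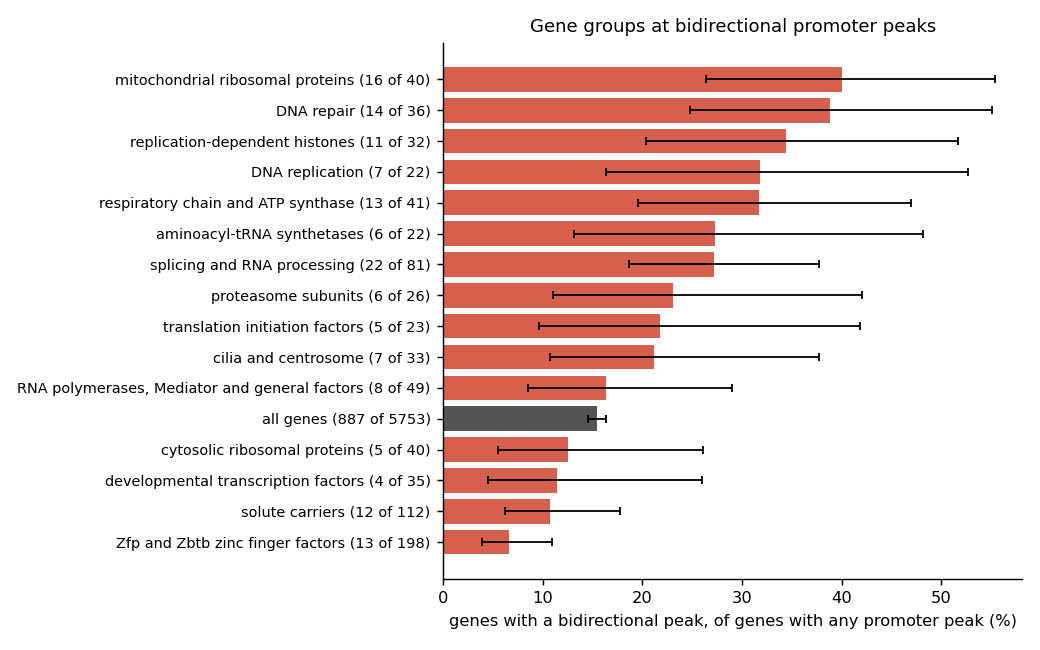
Genes with a bidirectional peak as a share (%) of the genes of each group with any promoter peak, for groups with at least 20 such genes and, in grey, for all genes. Bars start at 0, error bars are Wilson 95% intervals, and counts stand beside the names. Of the groups drawn, the mitochondrial ribosome is highest at 40.0% and Zfp and Zbtb factors lowest at 6.57%.

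In 10 pairs both genes belonged to the same group: 5 of histones, 2 of zinc finger genes (Zfp668/Zfp646 and Zfp944/Zfp758), Hars/Hars2, Mrpl46/Mrps11 and the basement membrane collagens Col4a4/Col4a3, whose peak of 1147 bp had a score of 655. The genes with a bidirectional peak were shorter than those with a single-gene peak, with a median span of 16253 bp (95% interval 14662 to 17136 bp, n = 887) against 21219.5 bp (20251 to 22116 bp, n = 4578). They were not shorter than the 14268 genes with no promoter peak, paired or not, at 15312 bp (14866 to 15768 bp). Genes with a peak opposite a noncoding gene had 26379 bp (21848 to 30674 bp, n = 288). Paired genes with no peak had a median span of 17891 bp (95% interval 16148 to 19251 bp, n = 1132), and its interval overlapped that of the genes with a bidirectional peak.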

How the data were processed

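Per the labels, ATAC-seq was made from untreated V6.5 mESCs (2 replicates) and ZBTB21-degron cells. The deposited score (column 5 of the authors' peak intervals) was used as it stands. The submitters' processing notes name cutadapt 2.6, Bowtie2 2.3.5.1 and MACS2 2.1.1 and the builds mm10 and hg19. The ATAC-seq peak calling, any Tn5 offset and the way the replicates were combined are not given in the sources used here. Peak boundaries, and so widths, depend on them.

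TSSs were the 5′ ends of curated RefSeq transcripts (GRCm38.p6, the sequence of mm10). Peaks were classed by a distance of 1000 bp from the nearest edge. GC content, CpG ratio, lower-case repeats and words were counted in the reference (Python 3.11.15, pandas 2.3.3, pysam 0.24.0). Intervals of medians are binomial order statistics and of shares Wilson, both at 95% (scipy 1.17.1). The classing was tested on 1000 simulated peaks, of which 0 differed from a direct count. No test of differences was made. The named pairs were 12 textbook pairs, the 8 highest and 5 lowest scores, the 8 widest and 5 narrowest peaks, the 4 closest and 4 farthest TSSs, and up to 6 genes a group by score, of which those with a clear role are given and some are not reported here. The members and lists were chosen with earlier results of these data known, and the histone pattern was adjusted to the annotation's symbols. The degron lists were not analysed here.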

Additional observations from a re-analysis of the deposited data

How the results depend on the processing

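Of 71 values under 9 other settings of the rule, 67 stayed inside the bounds of the reported value (within 1.5 times for the number of peaks) and 0 reversed. Keeping only the highest-scoring peak of each promoter could not change the share of pairs with a peak. That value was the same by construction. The number of peaks ran from 338 to 555. With TSSs within 2 kb, the difference in CpG ratio moved from 0.118 to 0.152, and with only peaks that overlap a TSS to 0.0848. With only peaks above the median score of the list, which cuts the range of scores by construction, the difference in score moved from 64 to 38.5. With 1 TSS per gene, the share of head-to-head pairs moved from 88.6% to 84.8%. The differences in width ran from 81 to 116 bp and in share with the ETS word from 13.1 to 15.2 percentage points. No paired analysis was possible because the single untreated list gives no values per replicate. For the same reason no replicate could be left out. The depth per sample is unknown, so a promoter with no listed peak may be accessible below the limit of the list.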

Other observations

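Where 2 peaks shared a pair, the TSSs were often far apart or the second peak was small. Of the 14 such pairs, Stap2/Mpnd, a signalling adaptor gene and a deubiquitinase-like gene with TSSs 1065 bp apart, had peaks of 617 bp (score 813) and 643 bp (score 729). Rad51b, of homologous recombination, and Zfyve26 had TSSs 1000 bp apart, with peaks of 589 bp (score 863) and 358 bp (score 768). Nat8f1 and Tprkb, of the KEOPS complex, started 87 bp apart, with a peak of 624 bp (score 877) and a second one of 320 bp (score 593). These pairs were singled out after their values were seen.

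At 5 peaks 3 genes met the rule. Alkbh1, a nucleic acid demethylase, Slirp, an RNA-binding protein of mitochondria, and Nrp shared a peak of 615 bp with a score of 865. Rfxank, of the RFX complex that activates MHC class II genes, and Borcs8 shared a peak of 883 bp with a score of 906 with the overlapping gene model Gm45929.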
